A study of Mus musculus with 48 samples.

Results

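Macrophages of liver and of blood origin were compared after 3 days in culture with Ito cells. Ito cells, also called hepatic stellate cells, store vitamin A in the liver and make matrix when they are activated. The comparison takes 3 arrays labelled Kupffer cells minus 3 arrays labelled monocytic macrophages, which are 6 of the 48 arrays of the series, and all 19505 genes with a symbol were tested. Both cell populations came from male Balbc mice. The cells labelled Kupffer were sorted magnetically from the liver on F4/80, the product of Adgre1, and are called F4/80-sorted cultures here. The monocytes came from the blood of the same mice on CD115, the receptor encoded by Csf1r, and are called CD115-sorted cultures here. Both were kept for 1 day with MCSF, the ligand of that receptor, before the 3 days with Ito cells. The other groups used beside them are the same sorted cells kept on MCSF for 3 more days, those kept for 1 day with Ito cells, and those kept for 3 days with CD146 cells (sinusoidal endothelial cells) or with hepatocyte growth factor (HGF). All groups hold 3 arrays, which the titles call biological replicates.

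Kupffer cells are the resident macrophages of the liver sinusoids. They clear particles, dying cells and iron from old red cells, and in the mouse they are known by Clec4f, Timd4, Vsig4, Cd5l and Marco. Circulating monocytes instead carry Ly6c2 and Ccr2, and can take on Kupffer cell features in a liver that has lost its own. The labels do not say whether macrophages and Ito cells shared a dish, whether Ito cells were removed before lysis, whether MCSF stayed in the medium, or whether animals were pooled. A lower level in a whole culture can come from fewer cells of a type or from less RNA per cell, and these cannot be told apart.

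The deposited values were log2 signals between 0.88 and 19.93, and a difference of 1 is a doubling. The median over negative control probe sets averaged 5.20 in both Ito groups, so a group mean below it carries no measured level. Differences were taken from the values as deposited, also below that median, and the size of a difference against such a mean is uncertain. Arrays of an Ito group of 3 days correlated with the rest of their group at 0.989 to 0.994 and with the other group at 0.969 to 0.972. Replicate 1 of the F4/80-sorted Ito group had a median of 5.51, against 5.28 and 5.27 in its replicates, and results are given without it where it matters. In the MCSF group of CD115-sorted cells, replicate 3 correlated better with the CD115-sorted Ito arrays (0.985) than with its own group (0.977). The count of genes that differ between the Ito and MCSF contrasts, and the shifts of some named genes, are therefore also given without it. The counts of the MCSF contrast itself keep this array.

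Between the 2 Ito groups, 1718 genes (8.81%) passed an adjusted p of 0.05 in limma, which was fitted to all 48 arrays. Of these, 947 (4.86%) were higher and 771 (3.95%) lower in the F4/80-sorted cultures. Differences of at least 4 on the log2 scale were found for 60 higher and 40 lower genes. The 3 values of a group lay apart from the other 3 for 928 of the higher and 763 of the lower genes. Over all genes tested, the groups lay apart with the F4/80-sorted arrays higher for 15.3% and lower for 10.4%. The median difference of all genes was 0.05. This balance turned under other scalings, with 908 higher and 969 lower after quantile normalization and 750 higher and 909 lower with each array centred on its median (45.2% higher in place of 55.1%). Without replicate 1 of the F4/80-sorted group, 613 genes were higher and 700 lower. In 225 of the higher genes the CD115-sorted mean was under the negative controls, and in 82 of the lower genes the F4/80-sorted mean was.

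**Figure D1:**
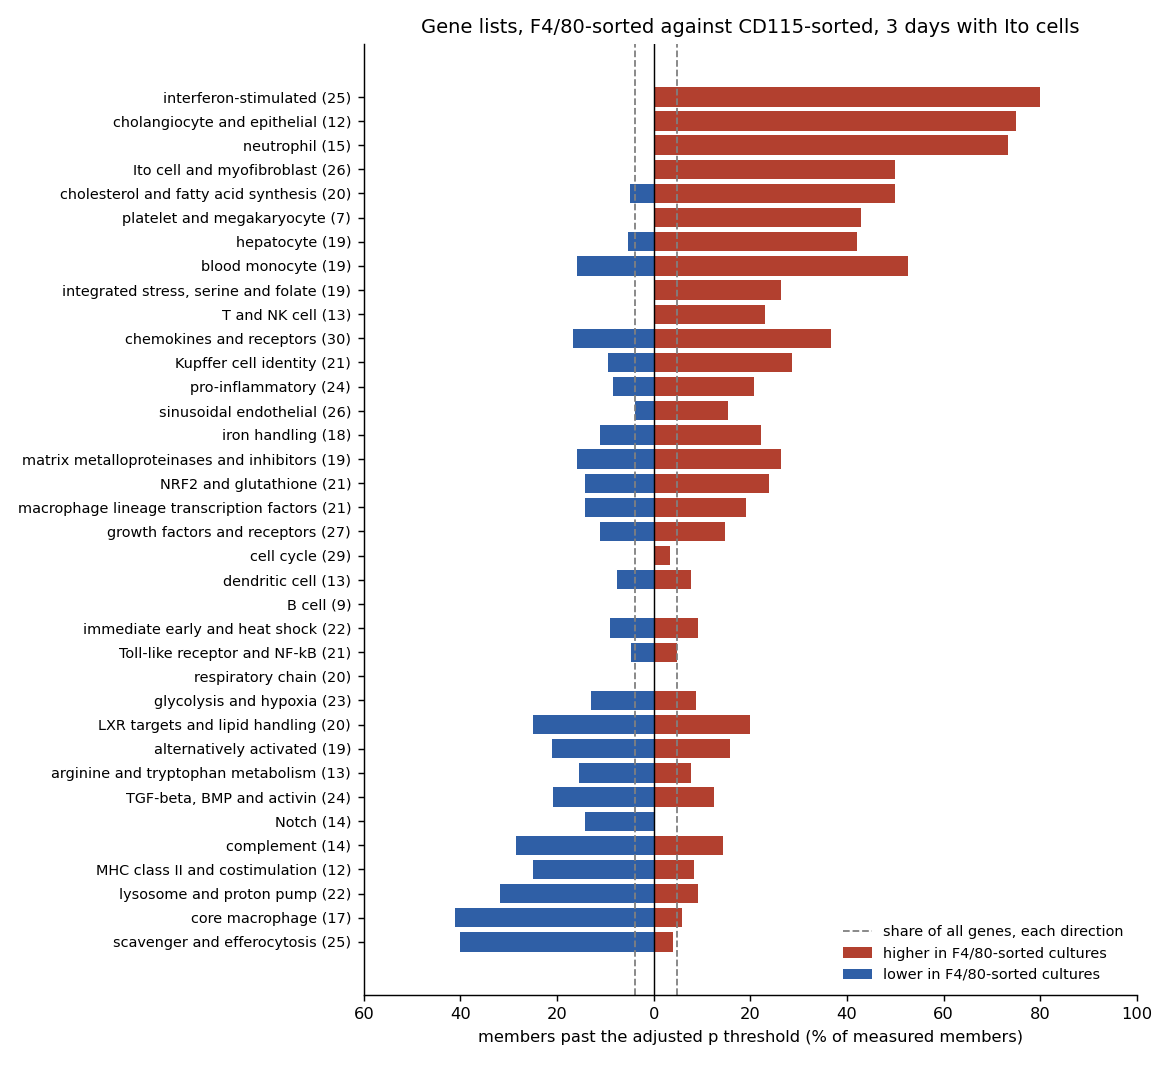
Share of each gene list past the adjusted p of 0.05, with members higher in the F4/80-sorted cultures to the right and members lower to the left, in percent of the measured members (number in parentheses). The dashed lines mark the shares over all genes, 4.86% and 3.95%. Interferon-stimulated, epithelial and neutrophil lists reach furthest right, and the core macrophage and scavenger lists furthest left.

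In the cultures of 3 days with Ito cells, the label Kupffer was not borne out by its defining markers. Clec4f, a lectin restricted to Kupffer cells, was under the negative controls in both groups. Vsig4, a complement receptor that clears bacteria from blood, had values of 6.57, 6.77 and 6.99 in the F4/80-sorted arrays and 14.29, 13.87 and 14.76 in the CD115-sorted arrays. It was thus low in the cultures labelled Kupffer and high in those labelled monocytic. The difference was -7.53 ± 0.29 (n = 3 against 3, SE from the fit to all arrays, limma adjusted p = 1.5e-22). Cd5l, a secreted scavenger protein, had 8.48, 8.95 and 8.63 against 12.80, 13.47 and 12.47, a difference of -4.23 ± 0.51 (adjusted p = 3.25e-08). The phosphatidylserine receptor Timd4 (-0.77 ± 0.35) and the scavenger receptor Marco (-1.83 ± 0.71) did not pass, at limma adjusted p = 0.218 and 0.119. Both passed as lower under array weights (adjusted p = 0.018 and 0.00638) and with only the arrays compared in the fit (0.0191 and 0.00499). Compared with the same sorted cells on MCSF at 3 days, the difference moved by -2.89 for Timd4 and -5.94 for Marco. Both moves passed (limma adjusted p = 4.57e-05 and 3.75e-05), as did that of Vsig4 (-3.20, adjusted p = 1.29e-07). The moves of Cd5l (-1.84, adjusted p = 0.115) and Clec4f (0.11, adjusted p = 0.92) did not pass. Of the 21 measured members of a Kupffer cell identity list, 6 were higher and 2 lower, with a median difference of 0.12. The 6 were the iron exporter Slc40a1 (5.59 ± 0.47), the heme-responsive factor Spic (3.03 ± 0.60), Id1, Id3, Cdh5 and Pcolce2. Slc40a1 had 13.16, 13.98 and 13.44 against 7.50, 9.15 and 7.17, so its groups did not overlap. Pcolce2 was under the negative controls in both groups.

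Monocyte markers were higher in the cultures sorted from liver. Ly6c2, the surface antigen of classical monocytes, had 17.11, 16.26 and 17.19 in the F4/80-sorted arrays and 6.81, 6.22 and 6.30 in the CD115-sorted arrays (10.41 ± 0.47, limma adjusted p = 3.24e-20). Its neighbour Ly6c1 differed by 9.96 ± 0.51, but the 2 genes are near copies and their probes may not tell them apart. Ccr2, the receptor through which monocytes leave the marrow, had 12.18, 11.67 and 12.11 against 8.67, 8.09 and 8.69 (3.51 ± 0.45, adjusted p = 1.51e-07). Plac8, Chil3 and Ms4a4c were higher by 7.94, 4.91 and 4.21. In the blood monocyte list 10 of 19 members were higher and 3 lower, with a median of 1.29. The 3 lower members were fibronectin Fn1 (-5.30 ± 0.79), the fractalkine receptor Cx3cr1 (-2.19 ± 0.44) and Itga4.

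Of 17 core macrophage genes, 7 were lower in the F4/80-sorted cultures and 1 higher, with a median of -0.58. Csf1r was between 15.69 and 16.20 in the F4/80-sorted arrays and between 16.31 and 16.46 in the CD115-sorted arrays, and its difference of -0.44 ± 0.23 did not pass (limma adjusted p = 0.333). Adgre1, which encodes the sorting antigen F4/80 itself, had 13.15, 13.37 and 12.97 against 15.48, 15.20 and 15.03. With Ito cells it was lower in the cultures that had been sorted on it, by -2.07 ± 0.30 (adjusted p = 1.69e-06). On MCSF for 3 days Adgre1 was instead higher in the F4/80-sorted cells, by 1.15, and passed. The other lower members included Mertk (-4.68 ± 0.32), Itgam (-1.69 ± 0.35) and Cd63 (-1.45 ± 0.30), and the higher one was the high-affinity IgG receptor Fcgr1 (2.02 ± 0.29).

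Genes of neutrophil granules, which are made while neutrophils mature in the bone marrow, were among the largest differences toward the F4/80-sorted cultures, beside Ly6c2, Ly6c1 and Ppbp. Ngp, a granule protein, had 15.17, 13.93 and 15.31 against 3.46, 3.45 and 3.27 (11.41 ± 0.45, limma adjusted p = 4.45e-22). Myeloperoxidase Mpo had 16.04, 15.03 and 15.98 against 5.54, 5.87 and 5.21 (10.14 ± 0.54, adjusted p = 4.59e-18). The F4/80-sorted arrays were high for both genes, and the CD115-sorted arrays lay near or below background. The serine proteases Elane (9.54 ± 0.50), Prtn3 (8.65 ± 0.43) and Ctsg (8.0 ± 0.51) behaved alike, as did Ms4a3 (6.97 ± 0.43), a marker of granulocyte and monocyte progenitors. Elane had 12.58, 13.36 and 14.73 in the F4/80-sorted arrays and 4.27, 3.91 and 3.88 in the CD115-sorted arrays. The calcium-binding S100a9 differed by 8.14 ± 0.46 and the iron-scavenging lipocalin Lcn2 by 9.11 ± 0.79. S100a8, the partner of S100a9 and named after its values were seen, differed by 6.62. In the neutrophil list 11 of 15 members were higher and none lower, with a median of 6.62. The other 4 did not pass. Of these, Cxcr2 and Retnlg, named after their values were seen, were under the negative controls in both groups, and Csf3r had 6.80, 6.44 and 6.69 against 7.77, 8.12 and 7.31. Among the higher members, the differences went as low as 2.28 ± 0.26 for the secondary granule gene Ltf, 1.99 for Mmp8 and 1.39 for Camp.

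**Figure D2:**
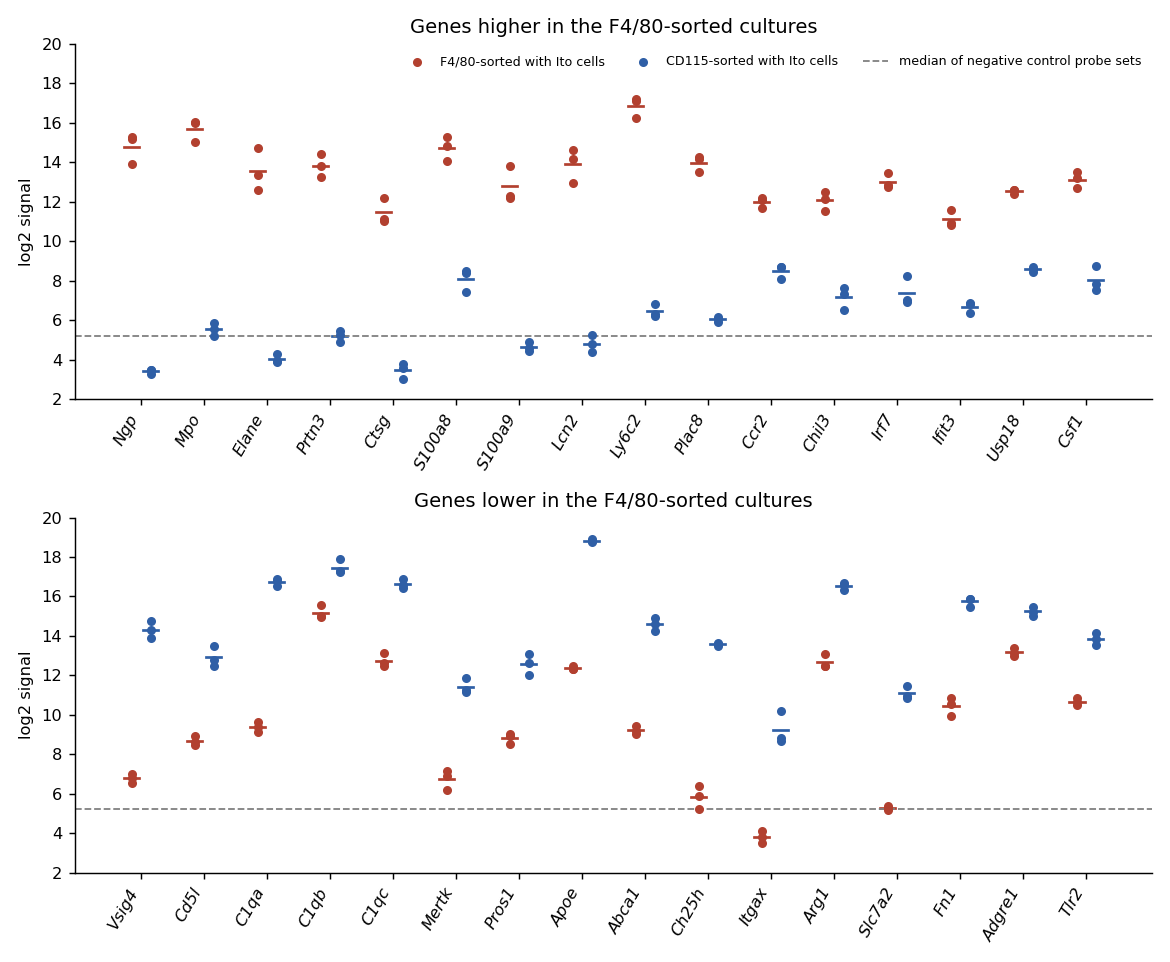
Log2 signal of 32 named genes in each of the 6 arrays, with short lines at the group means and a dashed line at the median of the negative control probe sets. In the upper panel the F4/80-sorted arrays lie above the CD115-sorted arrays for every gene shown, and in the lower panel the CD115-sorted arrays are the higher ones.

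Upstream of Ngp, S100a9 and Lcn2 the letters GAGGAAGT were not found in the window used here. Upstream sequences are shown for 3 of the granule genes that hold these letters, and were chosen for that match. Each is the 250 bases before the annotated start, on the plus strand, from the RefSeq promoter table of mouse build GRCm38.p6. Capitals mark GAGGAAGT, a site of the kind bound by PU.1, the myeloid factor encoded by Spi1. Elane lies at chr10:79886062-79886311, Prtn3 at chr10:79879417-79879666 and Mpo at chr11:87793534-87793783.
Elane: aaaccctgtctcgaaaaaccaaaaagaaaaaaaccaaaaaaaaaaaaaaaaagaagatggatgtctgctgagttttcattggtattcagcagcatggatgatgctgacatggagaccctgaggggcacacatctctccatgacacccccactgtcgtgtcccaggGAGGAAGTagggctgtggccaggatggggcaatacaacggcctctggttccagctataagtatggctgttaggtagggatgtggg
Prtn3: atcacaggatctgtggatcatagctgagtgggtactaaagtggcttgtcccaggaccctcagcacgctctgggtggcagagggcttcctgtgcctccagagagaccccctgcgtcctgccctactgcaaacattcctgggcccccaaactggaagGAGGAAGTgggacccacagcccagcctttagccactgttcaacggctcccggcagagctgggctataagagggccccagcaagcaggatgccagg
Mpo: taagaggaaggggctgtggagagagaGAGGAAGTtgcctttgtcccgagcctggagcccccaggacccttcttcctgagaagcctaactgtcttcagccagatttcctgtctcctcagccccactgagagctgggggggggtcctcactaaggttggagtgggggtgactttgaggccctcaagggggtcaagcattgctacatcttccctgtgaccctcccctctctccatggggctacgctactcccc
The first base of the match stands at -85 in Elane, -95 in Prtn3 and -224 in Mpo, counted back from the start. On either strand, GAGGAAGT was found upstream of 5 of the 11 higher neutrophil genes (Elane, Mmp8, Mpo, Prtn3 and S100a8) and of 2.79% of all 27025 genes in the table. TTGCNNAA, a C/EBP type of site, was found upstream of 5 of the 11 (Lcn2, Ltf, Mmp8, Ngp and S100a9) and of 10.8% of all genes. Mmp8 held both. A match describes letters in this window and shows no binding. Spi1 itself differed by -0.14 and did not pass.

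Interferon-stimulated genes were the list with the largest share of members higher in the F4/80-sorted cultures. These genes restrict viruses and answer type I interferon. Of 25 measured, 20 were higher and none lower, with a median difference of 2.66. Irf7, the factor that amplifies interferon production, had 13.44, 12.75 and 12.84 against 7.04, 8.21 and 6.91 (5.63 ± 0.51, limma adjusted p = 3.71e-11). Usp18, the brake on the interferon receptor, had 12.59, 12.38 and 12.61 against 8.61, 8.71 and 8.42 (3.95 ± 0.33, adjusted p = 5.01e-12). For both the F4/80-sorted values all lay above the CD115-sorted ones. The DNA sensor Ifi204 (2.52 ± 0.16), Xaf1 (3.58 ± 0.33) and the RNA-binding Ifit1 (3.81 ± 0.36) followed. The 5 members that did not pass were Bst2, Irf1, Gbp2, Gbp3 and Ifih1, with differences from 0.11 to 0.95.

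Letters found upstream of some of these genes are shown for Ifit1 and for its neighbour Ifit3, which was named after its values were seen (4.44 ± 0.44). Both were chosen as genes that hold them. Capitals mark the reverse strand of the core of the interferon-stimulated response element, which is GAAA, any 2 bases and GAAA again. Ifit1 lies at chr19:34640639-34640888 and Ifit3 at chr19:34583279-34583528, both on the plus strand of GRCm38.p6.
Ifit1: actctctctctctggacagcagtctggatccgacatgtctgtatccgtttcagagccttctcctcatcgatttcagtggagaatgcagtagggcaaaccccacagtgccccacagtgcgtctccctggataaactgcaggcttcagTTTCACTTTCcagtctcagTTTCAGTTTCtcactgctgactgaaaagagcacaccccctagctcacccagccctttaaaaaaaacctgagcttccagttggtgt
Ifit3: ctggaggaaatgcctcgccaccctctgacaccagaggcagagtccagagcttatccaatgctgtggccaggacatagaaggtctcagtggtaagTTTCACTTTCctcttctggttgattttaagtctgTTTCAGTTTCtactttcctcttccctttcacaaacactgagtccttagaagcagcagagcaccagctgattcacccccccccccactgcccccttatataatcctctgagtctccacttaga
In Ifit1 the matches start at -104 and -85, and in Ifit3 at -156 and -122. On either strand the motif was found upstream of 8 of the 14 higher interferon-stimulated genes that have a promoter in the table, and of 3.46% of all genes. None of the 11 neutrophil genes held it, and none of these 14 held GAGGAAGT or TTGCNNAA. At the shares over all genes, few or no matches would be found in sets of this size. These absences therefore do not set either set apart from other genes.

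In the complement list 4 of 14 members were lower in the F4/80-sorted cultures and 2 higher, with a median of -0.40. C1q, which opens the classical complement pathway and also tags dying cells, has 3 chains. C1qa had 9.63, 9.38 and 9.15 in the F4/80-sorted arrays and 16.79, 16.89 and 16.55 in the CD115-sorted arrays (-7.36 ± 0.67, limma adjusted p = 3.71e-11). C1qc differed by -3.89 ± 0.48 and C1qb by -2.30 ± 0.49. Thus all 3 chains were lower in the F4/80-sorted cultures, by unequal amounts, while C1qb stayed at 14.95 to 15.56 there. C4b differed by -4.20 ± 0.69.

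In the scavenger and efferocytosis list 10 of 25 members were lower and 1 higher, with a median of -0.77. Mertk, the receptor that triggers engulfment, had 6.89, 7.14 and 6.16 against 11.13, 11.85 and 11.24. Its bridging ligand Pros1 had 8.90, 9.01 and 8.54 against 12.64, 12.02 and 13.07 (-3.76 ± 0.35, limma adjusted p = 7.76e-11). Receptor and ligand were thus both low in the F4/80-sorted arrays. The integrin chain Itgb5 (-3.65 ± 0.27), the oxidised lipoprotein receptor Olr1 (-4.53 ± 0.47) and the scavenger chemokine Cxcl16 (-3.11 ± 0.24) were also lower. The mannose receptor Mrc1 had 15.19, 16.17 and 15.30 against 14.77, 15.68 and 15.34, so its groups overlapped (0.29 ± 0.52).

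Among genes of LXR response and lipid handling, 5 of 20 were lower in the F4/80-sorted cultures and 4 higher, with a median of -0.09. LXR is the receptor for oxysterols. Apoe, the lipoprotein that carries exported cholesterol, had 12.35, 12.48 and 12.31 against 18.79, 18.78 and 18.90 (-6.45 ± 0.31, limma adjusted p = 1.46e-19). The CD115-sorted values lie close to the highest signal of the data set, 19.93. Abca1, the exporter, had 9.41, 9.18 and 9.02 against 14.23, 14.89 and 14.62 (-5.38 ± 0.37, adjusted p = 1.44e-14). The phospholipid transfer protein Pltp (-6.71 ± 0.70), the ubiquitin ligase Mylip (-2.98 ± 0.37) and the partner receptor Rxra (-2.74 ± 0.30) were lower as well. Nr1h3, which encodes LXR alpha, differed by -0.76 ± 0.36 and did not pass (adjusted p = 0.256). It passed under array weights (adjusted p = 0.0311) and with only the arrays compared in the fit (adjusted p = 0.0346). Ch25h, which makes the LXR ligand 25-hydroxycholesterol, had 6.41, 5.22 and 5.90 against 13.65, 13.57 and 13.48 (-7.72 ± 0.96, adjusted p = 8.58e-08). The lipid droplet coat Plin2 went the other way, with 17.77, 17.50 and 17.75 against 15.48, 15.91 and 15.41 (2.08 ± 0.22).

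In the cholesterol and fatty acid synthesis list 10 of 20 members were higher in the F4/80-sorted cultures and 1 lower, with a median of 0.89. The higher members numbered 7 without replicate 1 of the F4/80-sorted group, and also 7 without replicate 1 or 3 of the CD115-sorted group. Squalene epoxidase Sqle had 9.04, 8.55 and 8.26 against 5.74, 5.75 and 5.21 (3.05 ± 0.32, limma adjusted p = 1.09e-09), with no overlap. Fdps, Idi1 and Fdft1, which act before squalene epoxidase in the pathway, were higher by 2.09, 2.26 and 1.84. The elongase Elovl6 was higher by 3.51, and the CD115-sorted mean was under the negative controls.

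Arginine, inflammatory and growth factor genes split between the groups. Arginase Arg1 had 12.47, 12.48 and 13.07 against 16.33, 16.69 and 16.60 (-3.87 ± 0.59, limma adjusted p = 4.78e-06). The arginine transporter Slc7a2 had 5.38, 5.28 and 5.18 against 10.87, 11.46 and 10.97 (-5.82 ± 0.78, adjusted p = 3.68e-07). Both were high in the CD115-sorted arrays, and Slc7a2 was near background in the F4/80-sorted ones. Nitric oxide synthase Nos2 (1.23 ± 0.41), Ccl2 (1.75 ± 0.58) and Il6 (1.73 ± 0.61) did not pass, at adjusted p = 0.0517, 0.0533 and 0.0694. Each of them passed under some alternative fits, over which the adjusted p reached as low as 0.00425, 0.0001 and 0.000171 in that order. Il1b (-0.19 ± 0.72) and Tnf (0.68 ± 0.87) did not pass in any. In the pro-inflammatory list 5 of 24 members were higher and 2 lower, with a median of 0.60. The 3 with the smallest p among the higher ones beside Lcn2 were the neutrophil attractant Cxcl3 (4.87 ± 0.69), Ptgs2 (3.51 ± 0.58), which makes prostaglandins, and Cxcl10 (3.20 ± 0.61).

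Among chemokines and their receptors 11 of 30 were higher and 5 lower. Ppbp, the platelet and myeloid chemokine, had 14.36, 13.31 and 13.70 against 4.53, 5.16 and 3.83 (9.28 ± 0.50, limma adjusted p = 5.54e-18). Cxcl5 was higher by 6.24 ± 0.42 and Ccl8 by 3.83 ± 0.50. Cxcl13, the B cell attractant, was lower by -4.53 ± 0.71. Among growth factors, Csf1, which encodes MCSF itself, had 13.50, 12.68 and 13.20 against 7.50, 8.73 and 7.81 (5.11 ± 0.50, adjusted p = 2.93e-10). Met, the HGF receptor, was higher by 2.27 ± 0.34, while Hgf had 8.04, 7.92 and 7.75 against 7.38, 8.55 and 8.31 and did not differ beyond its spread (-0.17 ± 0.34). The receptors Tgfbr1 (-2.70 ± 0.29) and Tgfbr2 (-2.15 ± 0.30) and the ligand Tgfb2 (-3.67 ± 0.43) were lower, and Tgfb1 did not pass (-0.01 ± 0.20). The BMP and TGF-beta responsive Id1 was higher, with 11.97, 11.38 and 11.54 against 7.60, 7.63 and 7.01 (4.22 ± 0.67, adjusted p = 1.14e-05).

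None of 20 respiratory chain genes passed, and their median difference was 0.12. Of 29 cell cycle genes 1 passed, Cdc20 (1.45 ± 0.42, limma adjusted p = 0.0184), and its call was lost without replicate 1 of the F4/80-sorted group (adjusted p = 0.0935) and in 3 more of the fits that leave out 1 array. With only the arrays compared in the fit, 8 of the 29 were higher and none lower. The F4/80-sorted values lay apart above the CD115-sorted ones for 20 of the 29 and apart below them for none. Over all genes these shares were 15.3% and 10.4%. The median difference of the list was 0.51. The mean level of the cell cycle list was 11.16 to 11.46 in the F4/80-sorted arrays and 10.59 to 10.85 in the CD115-sorted arrays. In glycolysis and hypoxia 2 of 23 genes were higher and 3 lower. In the lysosome list 7 of 22 were lower and 2 higher, led by the proton pump subunit Atp6v0d2 (-5.57 ± 0.47), and 4 or 5 were lower when any single Ito array was left out. In the glutathione and NRF2 list 5 of 21 were higher and 3 lower, from Nqo1 (3.79 ± 0.35) to Ephx1 (-3.88 ± 0.42).

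Some markers of other cells were also higher in the F4/80-sorted cultures, to a different extent for each cell type, and their part in the results above was not tested. In the Ito cell and myofibroblast list 13 of 26 members were higher and none lower, and the summed signal of the list was 13.73 to 13.84 against 9.87 to 10.04 on the log2 scale. Without replicate 1 of the F4/80-sorted group 10 members were higher, and also 10 without replicate 3 of the CD115-sorted group. Sparc, a matrix protein, had 12.13, 12.73 and 12.78 against 5.86, 6.94 and 5.78 (6.35 ± 0.49, limma adjusted p = 4.05e-13). Smooth muscle actin Acta2, the sign of an activated stellate cell, was higher by 3.59 ± 0.35, Bgn by 4.86 ± 0.54 and Dcn by 3.00. Of the defining markers, Lrat, Des and Reln were under the negative controls in both groups, and Pdgfrb and Col3a1 under them in the CD115-sorted arrays. Col1a1 had 6.73, 6.03 and 5.74 against 5.15, 4.37 and 4.87, and its call (1.37 ± 0.42, adjusted p = 0.029) was lost in 4 of the 6 fits that leave out 1 array, with adjusted p from 0.0584 to 0.203.

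In the cholangiocyte and epithelial list 9 of 12 members were higher and none lower, with a median of 2.82. Keratin Krt7 had 11.00, 10.76 and 9.33 against 5.22, 4.73 and 5.13 (5.34 ± 0.50, limma adjusted p = 7.15e-11), and Krt19, Krt8 and Cdh1 were higher by 4.37, 4.56 and 3.70. The summed signal of the list was 11.59 to 12.45 in the F4/80-sorted arrays and 7.89 to 8.01 in the CD115-sorted arrays. In the hepatocyte list 8 of 19 members were higher and 1 lower. Albumin Alb had 13.16, 12.24 and 12.90 against 6.01, 5.09 and 5.56 (7.21 ± 0.47, adjusted p = 2.37e-15), whereas Apoa1 and Cps1 were under the negative controls in both groups and Ttr reached 5.73 to 5.88. The summed hepatocyte signal overlapped, at 12.55 to 13.41 against 12.97 to 13.30, and transferrin Trf, the largest signal of the list in the CD115-sorted arrays, differed by -3.73 ± 0.47. In the sinusoidal endothelial list 4 of 26 members were higher and 1 lower, 17 were under the negative controls in both groups, and these included Stab2, Lyve1 and Clec4g. The endothelial sum was 13.75 to 13.95 against 16.76 to 17.40, led by the Fc receptor Fcgr2b, which macrophages also express (-3.88 ± 0.40). In the platelet list 3 of 7 members were higher and none lower, and 2 were under the negative controls in both groups. The higher ones were Ppbp, Pf4 (1.79 ± 0.36) and Gp9. The call of Gp9 was lost under quantile normalization (limma adjusted p = 0.177) and median centring (adjusted p = 0.0699). The platelet sum was 18.40 to 19.05 against 16.69 to 17.08, and Ppbp made up little of it in either group. Which cells gave this sum was not tested. Of 13 T and NK cell genes 3 were higher, 1 of them without replicate 1 of the F4/80-sorted group, and Cd3e, Cd3d and Ncr1 were under the negative controls in both groups. The T and NK sum was 16.05 to 16.38 against 14.87 to 15.25. None of 9 B cell or 4 erythroid genes passed, with sums of 7.53 to 7.80 against 8.13 to 8.32 and of 7.43 to 7.75 against 6.86 to 7.74. In the dendritic cell list 1 of 13 members was higher and 1 lower, the integrin Itgax (-5.42 ± 0.44), and Flt3, Zbtb46 and Xcr1 were under the negative controls in both groups.

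**Figure D3:**
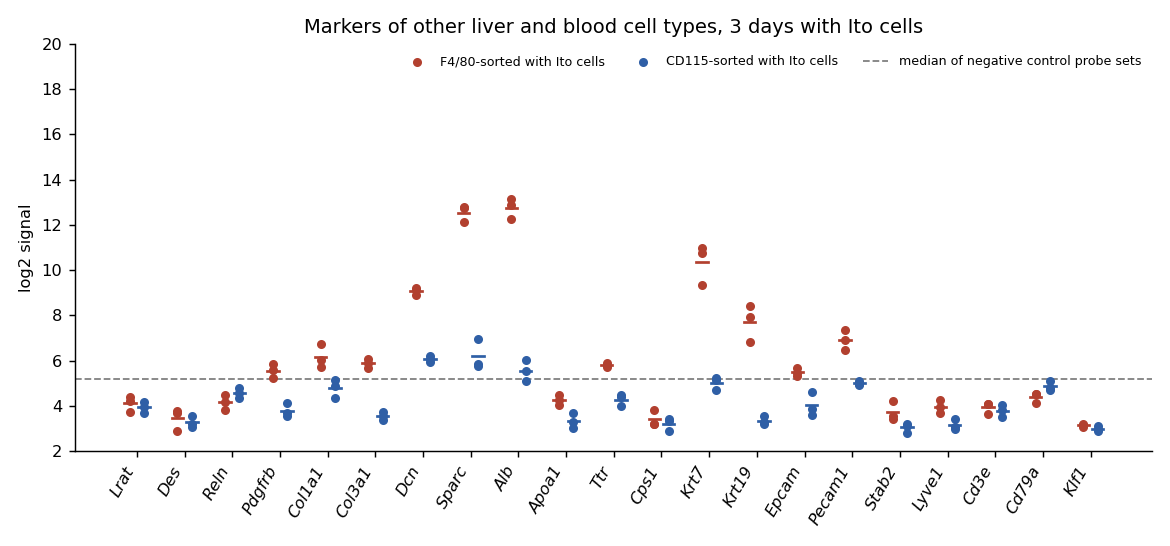
Log2 signal of 21 markers of Ito, hepatocyte, epithelial, endothelial, lymphoid and erythroid cells in the 6 arrays, with group means as short lines and the median of the negative control probe sets dashed. Sparc, Alb and Krt7 lie highest in the F4/80-sorted arrays, while Lrat, Des and Reln lie below the dashed line in all 6.

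The same 2 populations kept on MCSF for 3 days showed a different contrast. There 1244 genes (6.38%) were higher and 1111 (5.70%) lower in the F4/80-sorted cells, and no array is shared with the Ito comparison. Of the 947 genes higher with Ito cells, 234 were also higher with MCSF, which is 24.7% of the first list and 18.8% of the second, and 66 were lower there. Of the 771 genes lower with Ito cells, 211 were also lower with MCSF (27.4% and 19% of the lists) and 124 were higher there. The difference between the 2 contrasts passed for 1706 genes (8.75%), 894 (4.58%) toward the F4/80-sorted cells with Ito and 812 (4.16%) away. All 190 genes of opposite direction were among them. Their selection made this nearly certain, because 2 calls of opposite sign add up in the difference between the contrasts. With each array centred on its median, the share toward was 42.1% in place of 52.4%. Without replicate 3 of the CD115-sorted MCSF group the split was 855 and 836. The counts of the MCSF contrast, the overlaps and the 190 genes were not recounted without it.

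Granule genes and the iron exporter Slc40a1 carried the largest shifts toward the F4/80-sorted cultures. Mpo differed by -0.72 between the populations on MCSF and by 10.14 with Ito cells, a difference of 10.86 between the contrasts (limma adjusted p = 5.01e-14), and Elane shifted by 10.44 and Prtn3 by 9.79. Slc40a1 turned from -5.40 ± 0.47 with MCSF to 5.59 ± 0.47 with Ito cells, the T cell costimulator gene Cd28 from -4.90 to 2.44, and Plin2 from -3.05 to 2.08. In the other direction, Ch25h turned from 5.53 ± 0.96 to -7.72 ± 0.96, Prg4, which encodes lubricin, from 5.0 to -6.50, and Slc7a2 from 4.51 to -5.82. Il1b was 10.21 higher in the F4/80-sorted cells on MCSF and did not pass with Ito cells (-0.19), and Ccl5 (10.95 and 0.38) and Susd2 (12.67 and 0.02) did likewise. Susd2 was under the negative controls in both Ito groups. Interferon-stimulated genes were higher in both settings, in 25 of 25 members with MCSF and 20 of 25 with Ito cells, and the shift passed toward the F4/80-sorted Ito cultures for 1 and away for 7. Ly6c2 was 9.50 higher with MCSF and 10.41 higher with Ito cells, and the difference of 0.92 did not pass (adjusted p = 0.54). Cell cycle genes shifted toward the F4/80-sorted Ito cultures in 9 of 29, a count that keeps replicate 3 of the CD115-sorted MCSF group. Without that array the shift of Ube2c went from 4.16 to 1.96. That of Rrm2 went from 3.04 (limma adjusted p = 0.0403) to 1.19 (adjusted p = 0.214). The mean of the cell cycle list was 11.05 in that array against 6.40 and 6.64 in its replicates. Without that array the shifts of Irf7 (-2.10, adjusted p = 0.0238) and Lcn2 (-4.93, adjusted p = 6.93e-05) passed, which they did not with it (adjusted p = 0.452 and 0.0615).

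**Figure D4:**
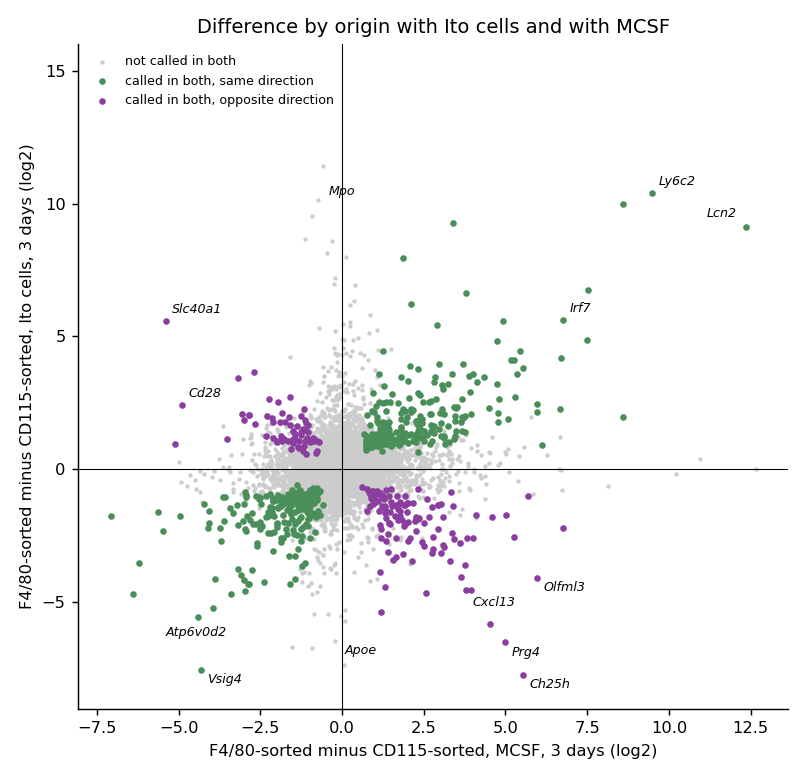
Log2 difference between F4/80-sorted and CD115-sorted cultures for each of 19505 genes, with MCSF on the horizontal axis and with Ito cells on the vertical axis, both at 3 days. Green points pass in both in the same direction and violet points, 190 genes, pass in opposite directions. Slc40a1 lies at the upper left and Ch25h at the lower right, and Mpo lies near 0 on the MCSF axis.

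The contrast also changed between 1 and 3 days with Ito cells. At 1 day 435 genes (2.23%) were higher and 151 (0.774%) lower in the F4/80-sorted cultures. The 216 genes higher at both times were 22.8% of the list of 3 days and 49.7% of that of 1 day, and the 80 genes lower at both were 10.4% and 53%. The difference between the days passed for 406 genes (2.08%), 180 (0.923%) toward the F4/80-sorted cultures at 3 days and 226 (1.16%) away. Ngp (10.65 at 1 day and 11.41 at 3 days), Alb (8.44 and 7.21) and Sparc (6.59 and 6.35) already differed at 1 day. Mpo went from 1.78 to 10.14, Ppbp from -0.05 to 9.28 and Irf7 from -0.26 to 5.63, with shifts of 8.36, 9.33 and 5.88 that passed. In the interferon-stimulated list 15 of 25 members shifted this way and none the other. In the core macrophage list 4 of 17 members shifted away from the F4/80-sorted cultures and 1 toward them, and 1 of 14 complement genes and 7 of 20 of LXR response and lipid handling shifted away. Vsig4 went from -0.76 to -7.53, Apoe from -0.69 to -6.45 and C1qa from -1.81 to -7.36. Atp6v0d2 turned from 5.11 ± 0.47 at 1 day to -5.57 ± 0.47 at 3 days, and Mfge8, a bridging protein of efferocytosis, from 4.06 to -2.58.

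The contrasts with CD146 cells and with HGF held more of the genes called with Ito cells than the MCSF contrast did. Of the genes higher with Ito cells, 677 were higher with CD146 cells (71.5% of the first list and 25% of the second) and 31 lower, and 650 were higher with HGF (68.6% and 34%) and 10 lower. Of the genes lower with Ito cells, 608 were lower with CD146 cells (78.9% and 26.2%) and 613 with HGF (79.5% and 30.9%). Over all genes, 13.9% were higher and 11.9% lower with CD146 cells, and 9.80% and 10.2% with HGF. In the cultures with HGF, to which no Ito cells were added, Sparc was higher by 7.33 ± 0.49, Acta2 by 6.81 ± 0.35, Krt7 by 10.58 ± 0.50 and Alb by 7.87 ± 0.47. The 112 higher and 158 lower genes that passed the same way with MCSF, CD146 cells and HGF included Ly6c2 (9.50, 5.07 and 8.32 in that order) and Vsig4 (-4.33, -9.39 and -1.71).

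The difference between the Ito and CD146 contrasts passed for 1411 genes (7.23%), 598 (3.07%) toward the F4/80-sorted Ito cultures and 813 (4.17%) away, around a median of 0.14 over all genes. With each array centred on its median, 470 were toward and 958 away (32.9% toward in place of 42.4%). All 29 cell cycle genes shifted away. Ube2c, the ubiquitin enzyme of mitosis, differed by 8.90 with CD146 cells and 1.14 with Ito cells. The mean of the cell cycle list was 11.87 to 12.03 in the F4/80-sorted and 6.46 to 6.72 in the CD115-sorted CD146 arrays. Arg1 went the other way, from -11.11 ± 0.59 with CD146 cells to -3.87 ± 0.59 with Ito cells. Ccl8 (-5.00 and 3.83), the haptoglobin gene Hp (-4.41 and 4.13) and the endothelin receptor Ednrb (-4.18 and 3.73) were lower in the F4/80-sorted cultures with CD146 cells and higher with Ito cells. In the interferon-stimulated list 11 of 25 members and in the neutrophil list 12 of 15 shifted toward the F4/80-sorted Ito cultures.

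**Figure D5:**
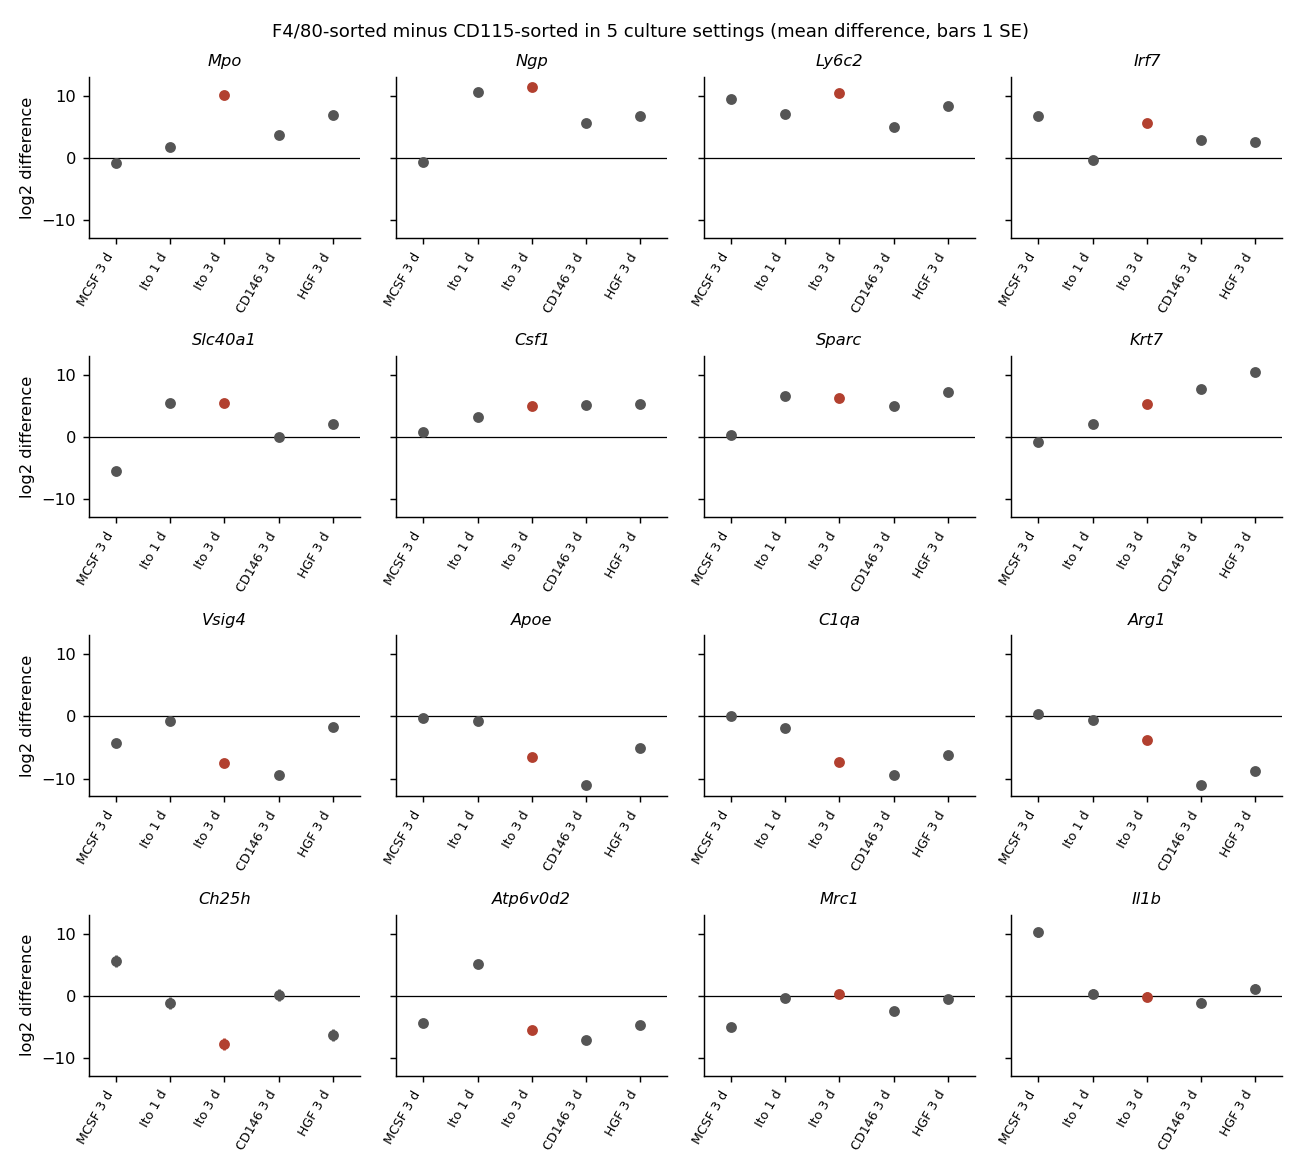
Mean log2 difference between F4/80-sorted and CD115-sorted cultures (3 arrays against 3) for 16 genes in 5 culture settings. The 3 days with Ito cells are in red. Bars are 1 SE from the fit to all arrays and mostly shorter than the point. A gene therefore has the same bar in all 5 settings, and the bars do not show the spread of the arrays compared. Mpo rises from -0.72 with MCSF to 10.14 with Ito cells, Ly6c2 stays positive in all 5, and Ch25h and Slc40a1 change sign between MCSF and Ito cells.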

How the data were processed

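Signals of a transcript array were measured in 16 groups of 3 arrays. The authors deposited log2 values, made with the Transcriptome Analysis Console and RMA per the submitters' processing notes (versions and genome build: not given in the sources used here). These notes do not say if the 48 arrays went through RMA jointly. Of 28846 probe sets, 6640 are controls and 2634 have no symbol. Where more than 1 probe set carried a symbol (55 genes), the brightest by mean signal was taken. The limma fit (3.58.1, R 4.3.3) held the 16 groups, with contrasts between sorted populations and differences of those contrasts, and Benjamini-Hochberg adjustment over 19505 genes at 0.05. The fit was tested on simulated data in which all groups shared 1 standard deviation per gene, so unequal spread between groups was not tested. Array number limits the precision, and p-values measure the spread between arrays.

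The members and the 37 gene lists were chosen with earlier results of these data known. Of 676 list genes 616 were matched. Named genes are the 15 largest differences each way, 10 each way for each difference of contrasts, up to 5 members per list by adjusted p, defining markers and a set of fixed genes, without unnamed models and near-identical families. Genes named outside this rule are S100a8, Ifit3, Pparg, Itga4, Pcolce2, Spi1, Cxcr2, Retnlg and the 5 interferon-stimulated genes that did not pass. The alternatives were quantile normalization, median centring, no dimmest 25% of genes, trended variance, array weights, the compared arrays alone, a replicate block, all probe sets, a 2-fold minimum and each array left out.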

Additional observations from a re-analysis of the deposited data

Results flagged for a closer look

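Differences between contrasts were tested as interaction terms in limma and passed for 1706 genes against MCSF, for 406 genes against 1 day with Ito cells and for 1411 genes against CD146 cells.

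Against MCSF at 3 days, the contrast of F4/80-sorted minus CD115-sorted cultures moved by -3.22 for Adgre1, -2.89 for Timd4, -3.20 for Vsig4, -4.67 for Nr1h3 and -3.12 for Cx3cr1. It moved by 6.64 for Id3, 4.06 for Ccr2, 5.28 for Mrc1, 2.46 for Acta2 and 7.42 for Alb. Among inflammatory and arginine genes it moved by -10.40 for Il1b, -2.30 for Nos2, -4.24 for Arg1 and -8.32 for Cxcl13.

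Between 1 and 3 days with Ito cells, the contrast moved by -10.68 for Atp6v0d2, -6.77 for Vsig4 and -6.64 for Mfge8, and by 6.68 for Prtn3, 8.36 for Mpo and 9.33 for Ppbp. Against CD146 cells, it moved by -7.82 for Ch25h, -7.76 for Ube2c and -7.57 for the cyclin gene Ccna2, and by 8.55 for Hp, 8.83 for Ccl8 and 9.52 for Ppbp.

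Probe sets with no gene symbol also differed between the Ito groups. Of 2634 such probe sets, 135 passed (5.13%), 82 higher and 53 lower in the F4/80-sorted cultures.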

How the results depend on the processing

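The count of genes between the Ito groups stayed within 1.5 times of 1718 under every alternative but array weights, which gave 3093. Array weights also gave 3017 genes for the difference from MCSF, 1202 for that from 1 day and 3336 for that from CD146 cells. With only the arrays compared in the fit, the difference from 1 day passed for 1070 genes and that from CD146 cells for 2661. Leaving out 1 array gave 1313 to 1409 genes between the Ito groups, 1424 to 1712 for the difference from MCSF, 310 to 350 for that from 1 day and 1121 to 1317 for that from CD146 cells. Replicate numbers did not pair the samples: in the Ito groups same-numbered deviations correlated at -0.065, -0.115 and 0.0482, and 1 of 120 pairs of groups had all 3 above 0.1. With a replicate block the counts were 1695, 1670, 398 and 1415 in the same order. Median centring moved the median of all genes in the difference from MCSF from 0.08 to -0.06, and quantile normalization that in the difference from CD146 cells from 0.14 to 0.02. Of the 165 named genes that passed between the Ito groups, 146 passed under all 13 alternatives run for them. Some named genes that did not pass in the main fit passed under array weights or with only the arrays compared. Csf1r, Csf3r, Gbp2, Gbp3 and Ifih1 were among them. The list counts are small: lower TGF-beta, BMP and activin genes numbered 5 and 3 without replicate 1 or 3 of the F4/80-sorted or replicate 2 or 3 of the CD115-sorted group. Signal near the negative controls limits what is measured, and in 84 higher and 16 lower called genes both group means lay under them.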

Other observations

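Members of other gene lists also passed limma's test of single genes between F4/80-sorted and CD115-sorted Ito cultures, and no list was tested as a whole. Over all genes, 4.86% were higher and 3.95% lower. Small counts, such as the 1 higher and 1 lower of 21 in the Toll-like receptor list, lie near these shares. In the matrix metalloproteinase list 5 of 19 members were higher and 3 lower (median 0.09), among them the inhibitor Timp1 (5.41 ± 0.37) and the membrane-bound Mmp14 (-2.56 ± 0.41). In iron handling 4 of 18 were higher and 2 lower (median 0.33), with Slc40a1, Lcn2 and the haptoglobin gene Hp (4.13 ± 0.40) on one side and Trf on the other. In the integrated stress, serine and folate list 5 of 19 were higher and none lower (median 0.47), from Phgdh (2.83 ± 0.33), the first enzyme of serine synthesis, to Shmt2 (1.16 ± 0.31). In MHC class II and costimulation 1 of 12 was higher and 3 lower (median -0.75), including the peptide loader H2-DMb1 (-2.48 ± 0.55). In the list of alternatively activated macrophages 3 of 19 were higher and 4 lower (median -0.15), from Chil3 (4.91 ± 0.40) to Fn1 (-5.30 ± 0.79).

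Among lineage transcription factors 4 of 21 were higher and 3 lower (median -0.02), with Cebpa (-2.41 ± 0.39) and Bhlhe40 (-2.31 ± 0.41) lower and Pparg, named after its values were seen, higher (1.87 ± 0.40). In the Toll-like receptor list Tlr5, which senses flagellin, was higher (1.99 ± 0.32), Tlr2 was lower (-3.20 ± 0.40) and the other members of 21 did not pass (median -0.19). Of 22 immediate early and heat shock genes 2 were higher and 2 lower (median 0.25), including Egr2 (-3.24 ± 0.46). In TGF-beta, BMP and activin 3 of 24 were higher and 5 lower (median 0.02), among growth factors 4 of 27 were higher and 3 lower (median 0.16), and in arginine and tryptophan metabolism 1 of 13 was higher and 2 lower (median 0.05). In Notch signalling none of 14 was higher and 2 were lower (median -0.07), led by Maml2 (-2.56 ± 0.30).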
